A study of Homo sapiens with 4 samples.

Results

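The genes described here encode components and targets of bone morphogenetic protein (BMP) signalling: the ligands BMP4 and BMP7, the receptor BMPR1A, the pathway inhibitors SMAD6, SMAD7 and BAMBI, and the ID proteins ID1, ID2, ID3 and ID4. They were taken as every array probe annotated with 1 of these 10 symbols, which gave 12 of the 47217 probes on the array and 9 of the 10 genes. BMPR1A was not analysed here. Of these 9 genes, 7 were measured well enough to be tested, among 11030 tested genes in all, and ID4 and BMP4 were not.

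The cells were H9, a human embryonic stem cell line in wide use, and all were cultured in serum replacer medium with basic FGF. Illumina bead arrays measured their RNA 24 h after gamma irradiation (n = 2) and before it (0 h, n = 2). The labels give no dose, although the series title speaks of a low one, and nothing in them says that replicates came from separate cultures. The p-values then measure the spread between these samples alone, and that spread may be technical. No unirradiated culture at 24 h was analysed here, so irradiation and a day in culture cannot be told apart, and the result describes 1 cell line. All arrays lay on 1 slide, with different positions for each time point, so position and time point cannot be told apart either.

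BMP ligands bind paired type I and type II receptor kinases, which phosphorylate SMAD1, SMAD5 and SMAD9. These join SMAD4, enter the nucleus and switch on target genes, of which the ID genes are among the most direct. ID proteins hold a helix-loop-helix domain without a DNA-binding region and keep basic helix-loop-helix (bHLH) factors off DNA. SMAD6, SMAD7 and BAMBI are induced by the pathway and restrain it. In human embryonic stem cells, added BMP4 drives differentiation, so this pathway is usually kept low in self-renewing cultures.

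The arrays detected 19705 to 20443 probes each, where detected means a detection p-value, set against the array's negative controls, under 0.05. The stem cell identity of the libraries was checked with 10 fixed markers, of which 7 had a named probe. POU5F1, NANOG, SOX2 and LIN28A were among these 7, all detected on all 4 arrays. The deposited signals were dimmer at 24 h, with medians of 143.8 and 134.7 at 24 h, against 158.4 and 175.2 at 0 h. Of all tested genes, 96.9% had a lower deposited signal at 24 h, with a median log2 change of -0.53, and normalization brought that median to -0.01. Values below are normalized log2 signals unless said otherwise, changes are log2 differences of 24 h minus 0 h, and ± after a change is the standard error (SE) of the limma fit. With 2 arrays against 2, an exact permutation test of a single gene could not go below p = 0.333 (two-sided), so the tests rest on limma's fit across all genes with Benjamini-Hochberg adjustment.

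BMP7 rose about 2-fold at 24 h and was the sole tested gene of the group past the threshold. SMAD6, SMAD7 and ID3 had higher values at 24 h that did not pass the test, while ID1, ID2 and BAMBI differed by 0.21 or less (log2) on the probes that stand for them, without passing. In counts, 1 of 7 rose and 0 fell at an adjusted p under 0.05, against 2.28% of all 11030 tested genes in either direction with 1.35% in the higher direction and 0.925% in the lower. At an unadjusted p under 0.05 there were 4 of 7, against 30.3% of tested genes. Both 24 h arrays lay above both 0 h arrays for 6 of the 7, against 30.3% of tested genes on that side. The median change of the 7 was 0.54, and that of all tested genes was -0.01. All 7 were detected on all 4 arrays, so none entered the test through 1 time point alone.

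**Figure D1:**
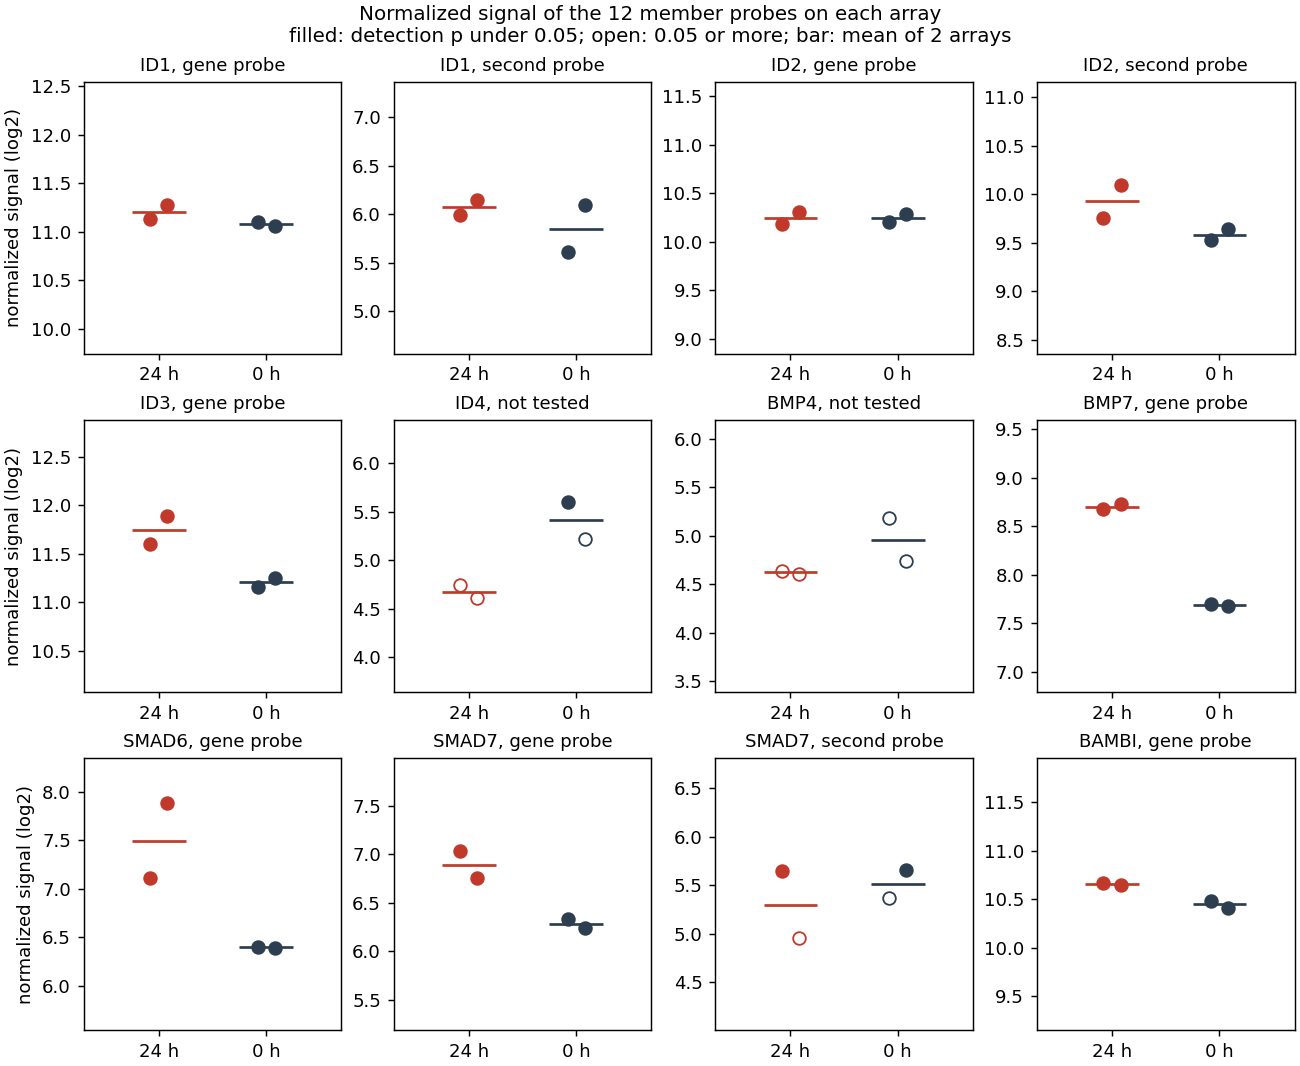
Normalized log2 signal (vertical axes, all drawn to the same height in log2 units) of the 12 probes on the 2 arrays at 24 h (left in each panel) and the 2 arrays at 0 h (right), with a bar at each mean and open points where the detection p was 0.05 or more. BMP7 shows the tightest separation, with 8.67 and 8.72 at 24 h against 7.69 and 7.68 at 0 h, whereas the ID2 probe that stands for its gene overlaps between the time points.

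Among the ligands, BMP7, a secreted BMP that signals through the same SMADs as BMP4, had normalized values of 8.67 and 8.72 at 24 h, against 7.69 and 7.68 at 0 h. The time points were separated by far more than the difference between arrays of either one. BMP7 averaged 8.70 ± 0.037 at 24 h and 7.69 ± 0.012 at 0 h (SD, n = 2 each), a rise of 1.01 ± 0.10 or 2.02-fold (95% interval 0.74 to 1.28, limma adjusted p = 0.0447). Of the tested genes, 1.23% had a higher change than BMP7. Its deposited signals, on dimmer arrays, were 458.5 and 380.9 at 24 h against 354.0 and 410.5 at 0 h, and these deposited values overlap. The call was narrow: with every probe fitted in place of 1 probe per gene, BMP7 had a limma adjusted p of 0.0801. Of 20361 probes, 0 passed (5235 at an unadjusted p under 0.05). No probe had a lower adjusted p, but this adjustment lets probes of unlike unadjusted p share a value, so BMP7 need not rank first. With the replicate number as a block its adjusted p was 0.0700, with no filter on dim probes it was 0.102, and with any single array left out it was 0.0929 to 0.238, while the change itself stayed at 0.99 to 1.04 in those leave-one-out fits.

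BMP4, the ligand most often used to differentiate these cells, was not detected on any array. Its deposited signals were 118.4 and 110.4 at 24 h, with detection p-values of 0.749 and 0.827, against 157.4 and 147.1 at 0 h, with detection p-values of 0.117 and 0.599. The probe was therefore not well above background in either group and no fold is given. Of 12 further BMP-type ligands listed, 10 had a probe and 2 were tested, with 0 passing. BMP2, a close relative of BMP4, stood at 6.48 and 6.33 at 24 h against 6.75 and 6.69 at 0 h, both 24 h values being the lower ones (-0.31 ± 0.11, limma adjusted p = 0.158). BMP6, detected on 1 array of each time point, stood at 0.15 ± 0.36 and overlapped.

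The bases upstream of ID1, ID2, ID3 and SMAD6 are shown because textbook SMAD target genes are here both among those with little difference and among those with the higher values. Each line is the 250 bases before the transcript start on the gene's strand, 5′ to 3′, from the RefSeq promoter table of the GRCh38.p14 build. Capitals mark the SMAD box GTCT on either strand (read as GTCT or AGAC) and the GC-rich element GGCGCC, which reads the same on both strands. The windows are chr20:31605039-31605288 (+ strand) for ID1, chr2:8681806-8682055 (+ strand) for ID2, chr1:23559502-23559751 (- strand) for ID3 and chr15:66701986-66702235 (+ strand) for SMAD6.
ID1: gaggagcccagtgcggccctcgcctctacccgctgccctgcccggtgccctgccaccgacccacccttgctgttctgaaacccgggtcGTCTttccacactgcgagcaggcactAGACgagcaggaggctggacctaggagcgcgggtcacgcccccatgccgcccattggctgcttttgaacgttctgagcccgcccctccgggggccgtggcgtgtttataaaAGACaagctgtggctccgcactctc
ID2: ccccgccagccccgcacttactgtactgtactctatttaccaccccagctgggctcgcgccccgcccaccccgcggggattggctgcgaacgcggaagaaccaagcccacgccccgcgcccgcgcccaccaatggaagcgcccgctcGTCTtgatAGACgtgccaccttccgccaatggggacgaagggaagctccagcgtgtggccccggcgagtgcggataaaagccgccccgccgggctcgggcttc
ID3: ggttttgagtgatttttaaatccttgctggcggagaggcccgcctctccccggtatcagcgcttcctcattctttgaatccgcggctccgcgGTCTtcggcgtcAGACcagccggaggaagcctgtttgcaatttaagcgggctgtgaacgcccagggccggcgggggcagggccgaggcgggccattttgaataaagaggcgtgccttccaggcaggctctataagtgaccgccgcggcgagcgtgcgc
SMAD6: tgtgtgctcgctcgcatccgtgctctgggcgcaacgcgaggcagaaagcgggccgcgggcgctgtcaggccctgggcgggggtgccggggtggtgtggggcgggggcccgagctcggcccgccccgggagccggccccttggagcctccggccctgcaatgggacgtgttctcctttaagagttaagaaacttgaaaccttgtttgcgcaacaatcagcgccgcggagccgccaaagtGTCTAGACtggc

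The SMAD box occurred 3 times in the ID1 window and 2 times in each of the other windows printed, and 77.5% of all 35116 promoter windows of this length hold it at least once. GGCGCC occurred in 0 of the 4 windows, against 16.4% of all windows. Among the windows of the group not printed, that of BAMBI held it 3 times, 1 window of BMP4 held it, and the rest did not. In SMAD6 the 2 boxes overlap in none of their letters and join into the palindrome GTCTAGAC, which begins 12 bases before the start and is held by 0.182% of all windows. Promoter entries were found for 9 of the 10 genes, and BMP7 had none. These matches describe letters in the windows and say nothing of binding in these cells.

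The ID genes did not move as a block, and none of the 3 tested members passed. ID3, which restrains bHLH factors in many progenitor cells, had 11.60 and 11.89 at 24 h, against 11.16 and 11.25 at 0 h. Both 24 h arrays were the higher ones, with a wider spread between them than between the 0 h arrays. The change was 0.54 ± 0.14 (1.45-fold, 95% interval 0.16 to 0.91, limma adjusted p = 0.0911), which did not pass. It passed under 2 of 13 alternatives, which called 2199 and 2522 of all 11030 tested genes, against 251 in the fit reported. ID3 was at 0.52 without background correction (limma adjusted p = 0.0114). It also passed with a prior that follows the signal level and resists outliers (adjusted p = 0.00334). Over all 13 alternatives its adjusted p ran from 0.00334 to 0.346.

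ID1, the most widely used readout of BMP signalling, was read by 2 probes. Its gene probe, ILMN_1664861, had 11.14 and 11.27 at 24 h, against 11.10 and 11.06 at 0 h. The 24 h values were the higher ones, but the smallest gap between the groups was less than the gap between the 24 h arrays. The change was 0.12 ± 0.11 (95% interval -0.17 to 0.42, limma adjusted p = 0.507), and it was -0.0061 when arrays were scaled to their 75th percentile instead of quantile normalized. The other ID1 probe, ILMN_1665832, had 6.00 and 6.14 at 24 h against 5.61 and 6.09 at 0 h, near background. It stood at 0.22 ± 0.20 in the fit of all probes (limma adjusted p = 0.552).

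ID2, which opposes bHLH factors in neural and lymphoid lineages, was read by 2 probes that gave unlike values. Its gene probe, ILMN_2086095, had 10.19 and 10.31 at 24 h, against 10.20 and 10.29 at 0 h, so the groups overlapped. The change was 0.00075 ± 0.11 (95% interval -0.30 to 0.30, limma adjusted p = 0.997), and it was -0.15 after scaling to the 75th percentile. The other probe, ILMN_1793990, had 9.76 and 10.10 at 24 h, against 9.53 and 9.64 at 0 h, with both 24 h arrays the higher ones. It stood at 0.34 ± 0.16 in the fit of all probes (limma adjusted p = 0.273), and the mean of both probes gave 0.17 for the gene. The intervals of the gene probes leave room for differences of up to 0.42 in ID1 and 0.30 in ID2, so equal levels are not shown. The interval of the other ID2 probe ran from -0.09 to 0.78.

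ID4, the member best known from neural and mammary progenitors, was at the edge of detection. Its deposited signals were 124.6 and 110.5 at 24 h, with detection p-values of 0.599 and 0.821, against 174.3 and 175.9 at 0 h, with detection p-values of 0.0247 and 0.130. ID4 was thus detected on 1 of the 2 arrays at 0 h and on neither array at 24 h, where it was not well above background, and it was not tested. The deposited signals were lower on both 24 h arrays, which were also the dimmer arrays, and the bound on its fold was below 1, so no fold is given.

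The inhibitory SMADs had the higher values at 24 h on the probes that stand for them, and neither passed. SMAD6, which blocks receptor activation of the BMP SMADs, had 7.11 and 7.88 at 24 h, against 6.399 and 6.395 at 0 h. Both 24 h arrays were higher, yet they differed from each other by more than the lower of them differed from the 0 h arrays. SMAD6 averaged 7.50 ± 0.55 at 24 h and 6.40 ± 0.0026 at 0 h (SD, n = 2 each). Its change of 1.10 ± 0.28 (2.14-fold, 95% interval 0.37 to 1.83, limma adjusted p = 0.0857) was larger than that of BMP7 but less precise. Leaving out 24 h replicate 1 gave 1.49, and leaving out 24 h replicate 2 gave 0.71. Without background correction, where 2199 of all 11030 tested genes passed, the change was 0.56 and passed (limma adjusted p = 0.0185). Over all 13 alternatives, of which 3 called it, its adjusted p ran from 0.00862 to 0.281.

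SMAD7, which recruits ubiquitin ligases to BMP and TGF-beta receptors, was read by 2 probes that differed in direction. Its gene probe, ILMN_2203891, had 7.04 and 6.75 at 24 h, against 6.34 and 6.24 at 0 h, all detected. Both 24 h arrays were the higher ones, and the change was 0.61 ± 0.14 (1.52-fold, 95% interval 0.23 to 0.98, limma adjusted p = 0.0777). The other probe, ILMN_2203896, was detected on 1 array of each time point and had 5.65 and 4.95 at 24 h, against 5.37 and 5.66 at 0 h. These groups overlapped, and it stood at -0.22 ± 0.28 in the fit of all probes (limma adjusted p = 0.676). With the mean of both probes SMAD7 stood at 0.20 (adjusted p = 0.541). Over all 13 alternatives, of which 1 called it, its adjusted p ran from 0.0496 to 0.541.

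BAMBI, a pseudoreceptor without a kinase domain that binds BMP and TGF-beta receptors, had 10.67 and 10.65 at 24 h, against 10.49 and 10.42 at 0 h. The 24 h arrays were both higher by a small margin. The change was 0.21 ± 0.10 (95% interval -0.07 to 0.48, limma adjusted p = 0.254), and it was 0.05 after scaling to the 75th percentile.

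The deposited signals of the same probes show what normalization added. ID1's gene probe had 2016 and 1731 at 24 h, against 2647 and 3037 at 0 h, a log2 change of -0.60 before normalization. The median of the brightest 10% of tested genes was -0.63 on the same deposited scale, so ID1 stood close to other bright genes. ID2's gene probe was at -0.72 and BAMBI at -0.54, whereas ID3 was at -0.20, SMAD7 at -0.11, SMAD6 at 0.12 and BMP7 at 0.13. BMP7, SMAD6, SMAD7 and ID3 were also the 4 genes with the highest normalized changes. The normalized values are computed from these deposited signals, so the shared order is not separate evidence. The gene probes of SMAD6 and SMAD7 read 184.9 to 266.4 in deposited signal, so the median of the bright genes is no like reference for them.

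**Figure D2:**
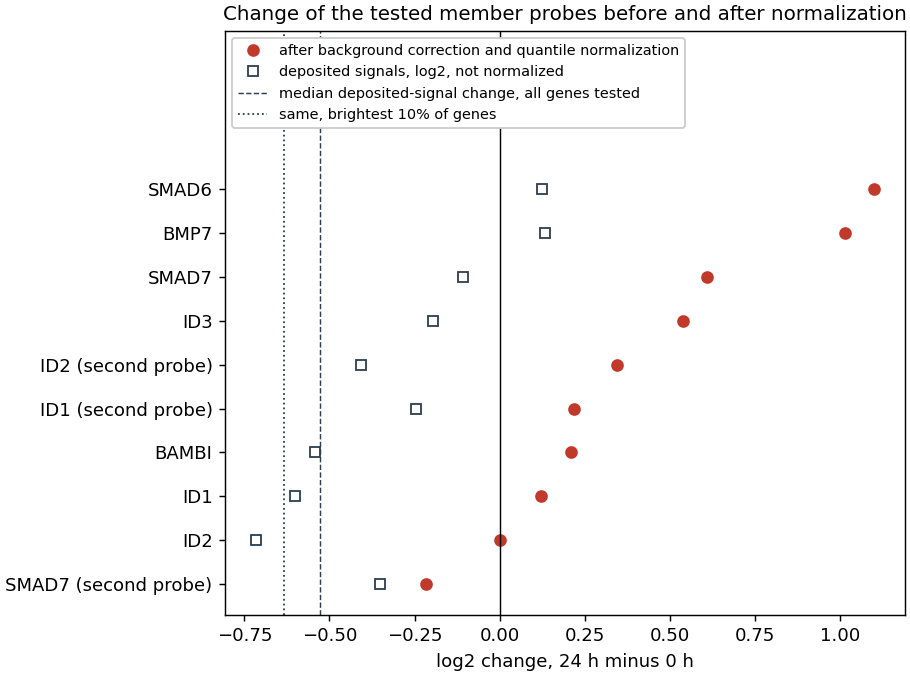
Log2 change, 24 h minus 0 h (horizontal axis), of the 10 tested probes after normalization (filled circles) and from the deposited signals (open squares), with the median deposited-signal change of all tested genes (dashed, -0.53) and of their brightest 10% (dotted, -0.63). BMP7 and SMAD6 are the 2 genes with a deposited-signal change above 0, while the gene probes of ID1 and ID2 lie near the dotted line.

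The rest of the pathway was read from fixed lists, in which 1 of 35 tested genes passed, a share near the 2.28% of all tested genes. Among receptors and co-receptors, 0 of 6 tested passed, with a median of -0.06. ACVR2B, a type II receptor for activins and BMPs, had 6.42 and 6.28 at 24 h against 5.88 and 5.79 at 0 h (0.51 ± 0.11, limma adjusted p = 0.0734). BMPR2, the main type II receptor of BMPs, had 6.60 and 6.02 at 24 h against 6.83 and 6.90 at 0 h (-0.55 ± 0.22, adjusted p = 0.177). ACVR2A stood at -0.21 ± 0.11, and both 24 h arrays of BMPR2 and ACVR2A were the lower ones. With the mean of their probes the changes were larger, -0.74 in BMPR2 and -0.56 in ACVR2A. Neither passed there (limma adjusted p = 0.108 and 0.117).

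Secreted antagonists and modulators had 1 of 8 tested genes past the threshold and a median of 0.16. NBL1, a DAN-family protein that binds BMPs outside the cell, had 7.54 and 7.55 at 24 h, against 6.48 and 6.55 at 0 h. It rose by 1.02 ± 0.10 or 2.03-fold (limma adjusted p = 0.0447), with the groups far apart relative to their spread. Without background correction, where 2199 of all 11030 tested genes passed, its change was 0.52 and still passed. NBL1 did not pass with the replicate block (limma adjusted p = 0.0700) or with no filter on dim probes (adjusted p = 0.102). With any single array left out its change was 0.99 to 1.06. BMP1, a protease that cleaves the antagonist chordin, stood at 0.41 ± 0.24, and FSTL1, a follistatin-like secreted protein, at 0.17 ± 0.11. The classical antagonists NOG and CHRD were not detected on any array.

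Among SMADs and their intracellular regulators, 0 of 11 tested passed, with a median of -0.10, 3 above 0 and 8 below. ZNF423, a zinc finger partner of BMP SMADs, had 9.15 and 9.34 at 24 h against 9.78 and 9.83 at 0 h (-0.56 ± 0.12, limma adjusted p = 0.0698). TOB1, which restrains BMP SMADs in bone cells of mice, had 8.51 and 9.01 at 24 h against 7.72 and 7.97 at 0 h (0.92 ± 0.21, adjusted p = 0.0768). SKI, a repressor that binds SMADs, stood at 0.48 ± 0.12 (adjusted p = 0.0815). Of the signal-carrying SMADs, SMAD5 stood at -0.22 ± 0.11 and SMAD4 at -0.24 ± 0.11, while SMAD1 and SMAD9 had 2 probes each, none detected on 2 arrays.

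Other BMP targets had 0 of 4 tested genes passing, and 15 of the 16 listed had a probe. HEY2 stood at 0.17 ± 0.16, HEY1 at -0.35 ± 0.40 and KLF4 at -0.20 ± 0.40, all with overlapping groups. With the mean of its probes HEY1 was at -0.62 ± 0.22 and did not pass (limma adjusted p = 0.145). HEY2 and HEY1 are repressors downstream of Notch and BMP signals, and KLF4 is a zinc finger factor of stem cells and epithelia. Of the 11 targets with a probe that were not tested, 8 (CDX2, DLX5, GATA2, GATA3, HAMP, HAND1, MSX2 and SP7) were not detected on any array. TFAP2A and TBX3 each had 1 probe detected on 1 array at 24 h, and ATOH8 was detected on 1 array at 0 h.

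Of the bHLH network that ID proteins act on, 0 of 4 tested passed. TCF12, an E protein that ID proteins sequester, had 8.77 and 8.58 at 24 h, against 9.28 and 9.28 at 0 h (-0.61 ± 0.12, limma adjusted p = 0.0642). HES1, a bHLH repressor driven by Notch, had 7.97 and 7.58 at 24 h, against 6.69 and 6.98 at 0 h (0.94 ± 0.19, adjusted p = 0.0657). In both genes the groups lay apart, TCF12 lower and HES1 higher on both 24 h arrays. HES6 stood at 0.08 ± 0.16 and TCF4, also an E protein, at 0.07 ± 0.25.

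**Figure D3:**
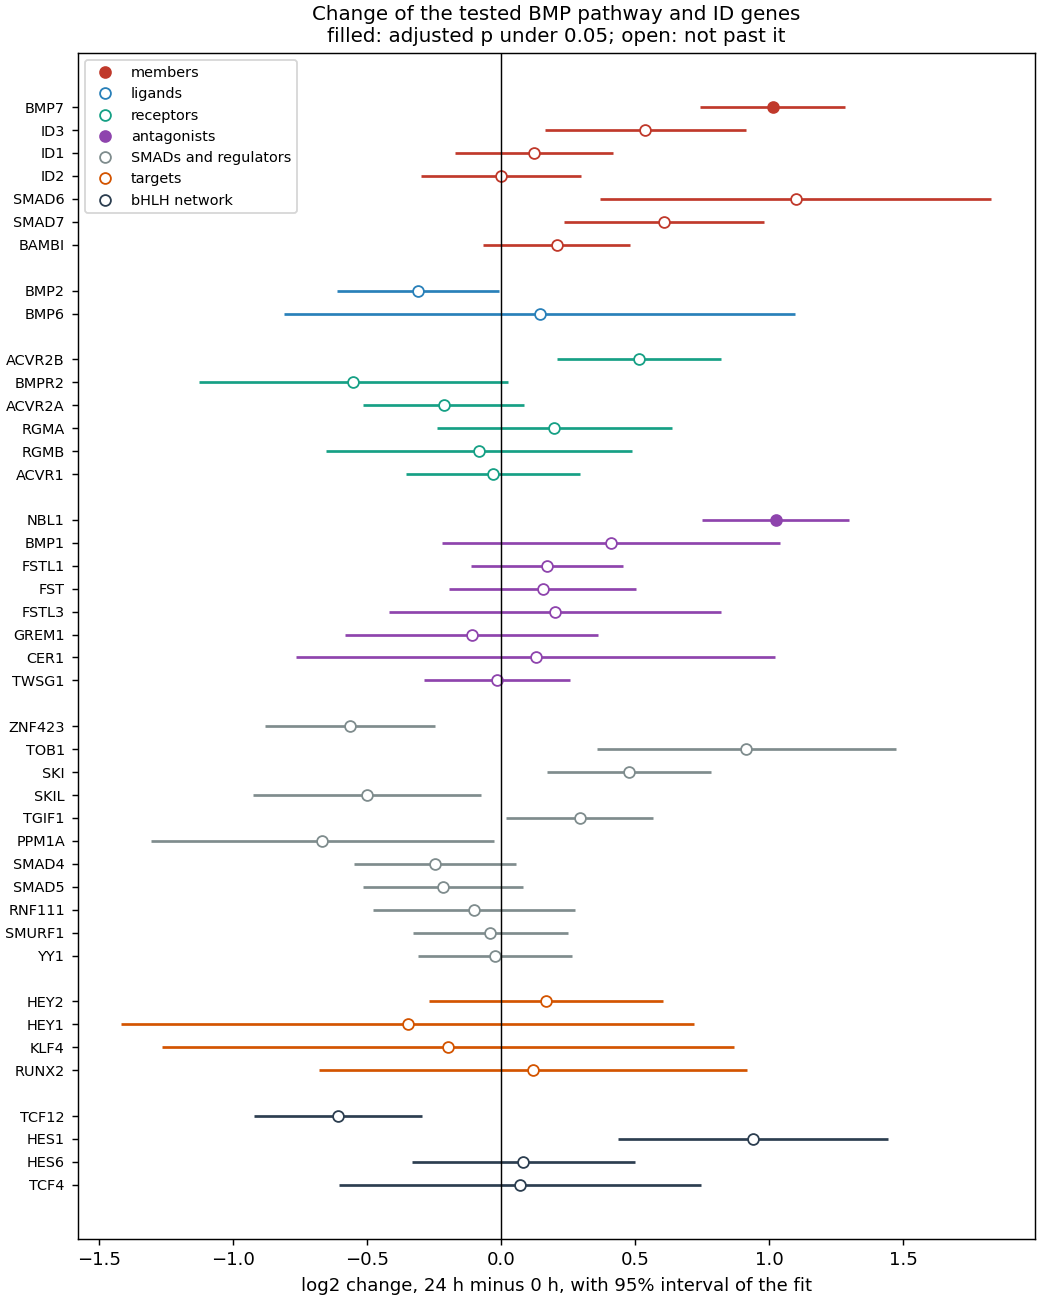
Log2 change, 24 h minus 0 h, with the 95% interval of the limma fit (horizontal axis) for the 7 tested genes of the group and the 35 tested genes of the pathway lists, filled where the adjusted p was under 0.05. BMP7 at 1.01 and NBL1 at 1.02 are the 2 filled points.

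The genes whose profile over the 4 arrays was most like that of ID1 were MTO1, RASSF7 and PARK7. Likeness was the root mean square difference between log2 values centred on each gene's mean, which was 0.0074 for MTO1, 0.0093 for RASSF7 and 0.0103 for PARK7. Within the group, BAMBI (0.073) and ID2 (0.077) lay nearest to ID1 and SMAD6 (0.54) farthest. ID1 itself differed by 0.12 (limma adjusted p = 0.507), so these genes match small differences between arrays, and shared regulation was not tested. The distance also depends on the size of the change, which was highest in SMAD6 among the group.

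Markers of fibroblasts and of pluripotent stem cells were read on the same arrays. Of 10 fibroblast markers, 4 were tested, and all 4 had both 24 h arrays above both 0 h arrays, as did 30.3% of the tested genes. COL1A1, a collagen chain, rose by 1.05 ± 0.14 (limma adjusted p = 0.0498), and PDGFRB (0.76 ± 0.17), COL1A2 (0.33 ± 0.11) and THY1 (0.30 ± 0.10) did not pass. COL1A1 no longer passed with the replicate block (adjusted p = 0.0700), without the filter (adjusted p = 0.105) or with any 1 of the 4 arrays left out (adjusted p = 0.0982 to 0.238). The summed normalized signal of these 4, on the linear scale with the offset removed, was 6527 and 6498 at 24 h, against 4825 and 4642 at 0 h. The defining markers COL3A1, LUM and PDGFRA were not detected on any array, and DCN, FAP and POSTN had no probe detected on 2 arrays. The 7 stem cell markers, of which 0 passed, summed to 33615 and 32683 at 24 h, against 36415 and 35886 at 0 h. GDF3, a TGF-beta family ligand of stem cells, stood at 7.89 and 7.49 on the normalized log2 scale at 24 h, against 8.71 and 8.57 at 0 h. Both 24 h arrays lay below both 0 h arrays, and the difference of -0.94 ± 0.17 did not pass (limma adjusted p = 0.0598), though it did under 5 of the 13 alternatives. The stem cell factor NANOG (0.31 ± 0.13) and L1TD1 (-0.37 ± 0.19) did not pass. The part of these differences in the BMP7, NBL1, SMAD6, SMAD7 and ID3 values was not tested, and in bulk RNA fewer cells of a type and less RNA per cell cannot be told apart.

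**Figure D4:**
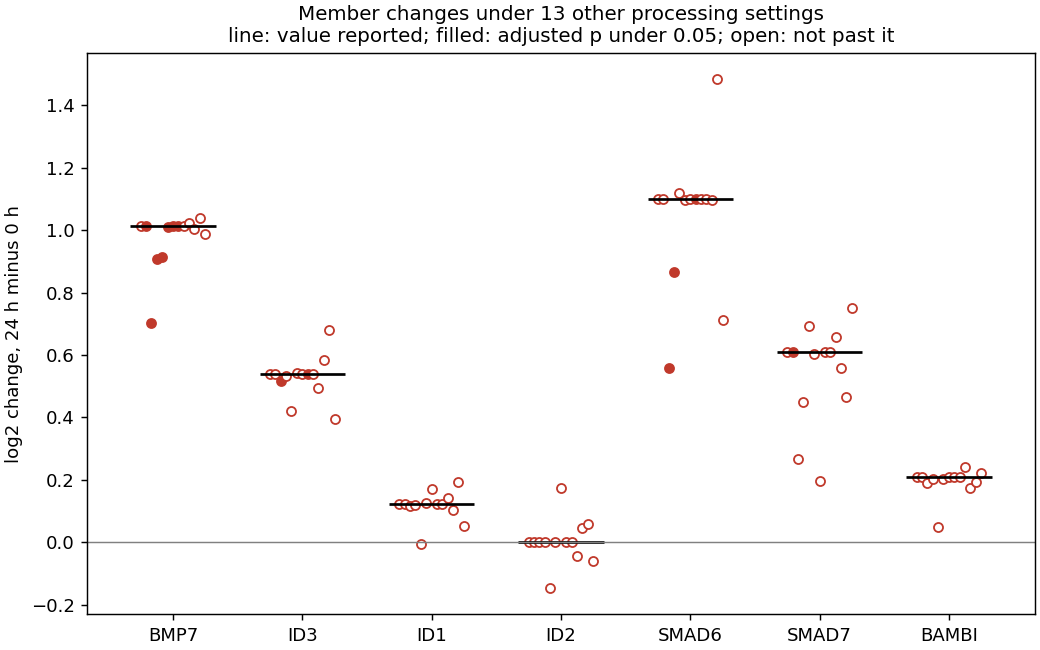
Log2 change, 24 h minus 0 h (vertical axis), of the 7 tested genes under 13 other processing settings (points, filled where the adjusted p was under 0.05) beside the value reported (line). BMP7 stays between 0.70 and 1.04 with 7 filled points, SMAD6 ranges from 0.56 to 1.49, and ID1 and ID2 have points on both sides of 0.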

How the data were processed

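Per the file headers, the deposited non-normalized table gives every probe a mean bead intensity and a detection p-value on each array. The authors' processed table holds log2 values; limma is named per the submitters' processing notes, and its version and steps are not given in the sources used here. The authors' log2 values differed by at most 0.0563 from neqc of the same signals.

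Intensities were corrected with neqc (offset 16) in limma 3.58.1 (R 4.3.3). Probes with a detection p under 0.05 on at least 2 arrays were kept (20361 of 47217). Symbols came from the platform annotation (1 symbol for 26358 probes, several for 3, none for 20856), and 26325 were matched by Entrez identifier to RefSeq with 0 changed. Of a gene's probes, the one with the highest mean stood for it, which gave 11030 genes. The fit was lmFit and eBayes, 24 h against 0 h, without a block, with two-sided p-values adjusted over all genes; the probe fit took all kept probes. The script was tested on simulated data. The 95% intervals use the fit's 4.56 degrees of freedom. For arrays, their number limits the precision.

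The genes and lists were chosen with earlier results of these data known. Beside the 10 genes, every called gene and the 3 smallest p-values of each list were named, with the 3 profiles most like ID1; further list members given with values (THY1, SMAD4, SMAD5, TCF4, POU5F1, SOX2, LIN28A) and the undetected genes were chosen after their values were seen. The 13 alternatives changed the filter, background correction, offset, scaling, starting table, probe summary, prior, block and arrays.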

Additional observations from a re-analysis of the deposited data

How the results depend on the processing

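The count of BMP and ID genes called was 1 and stayed 1 with scaling to the 75th percentile, with the authors' log2 table and with the mean of probes. It was 2 with the stricter detection filter and with an offset of 50, and 3 without background correction and with the trend and robust prior. It was 0 with no filter and with the replicate block, where limma had 5 and 4 of these genes at an unadjusted p under 0.05. It was 0 to 0 with any single array left out, with 3 to 4 at an unadjusted p under 0.05 in limma. The pathway lists had 1 gene called, against 6 with the stricter filter, 6 without background correction, 5 with an offset of 50, 4 with scaling to the 75th percentile and 7 with the trend and robust prior. They had 0 in limma with no filter, with the replicate block and with any array left out (13, 11 and 6 to 12 at an unadjusted p under 0.05). Of the probes of these genes, 0 passed in limma (4 at an unadjusted p under 0.05), against 1 with the stricter filter, 1 with an offset of 50, 3 without background correction and 3 with the trend and robust prior. Over all genes, 251 were called, against 1240 with the stricter filter, 2199 without background correction, 1357 with an offset of 50, 721 with scaling to the 75th percentile, 388 with the authors' log2 table and 2522 with the trend and robust prior. In limma 0 were called with no filter (3456 at an unadjusted p under 0.05), with the replicate block (3828) and with any array left out (1831 to 3341). With an array left out, the lone array is assumed to vary like the other group.

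BMP7, ID3, SMAD6, SMAD7, BAMBI and NBL1 kept their direction under all 13 alternatives, but many of these could not have turned it. The filters, the prior and the block left these changes as they were. In each gene both 24 h arrays lay above both 0 h arrays, so leaving out an array could not turn the direction either. The changes of background correction and offset kept the order of probes within an array, and quantile normalization followed. On the same probe they could therefore not turn the direction. The authors' values differed by at most 0.0563 from neqc of the same signals, too little to turn these changes. Scaling to the 75th percentile could have, as could the probe summary in genes with several probes. Scaling to the 75th percentile turned ID1 to -0.0061, ID2 to -0.15, KLF4 to 0.024, HES6 to -0.041, MTO1 to -0.050 and RASSF7 to -0.040. The authors' log2 table turned ID2 to -1.2e-05. With arrays left out, ID2 ranged from -0.059 to 0.060, BMP6 from -0.36 to 0.65, HEY2 from -0.025 to 0.36, HEY1 from -0.83 to 0.13, KLF4 from -0.79 to 0.39 and HES6 from -0.071 to 0.24. None of these passed in any of those settings, and the cause was not tested.

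The replicate numbers are not stated to mark shared cultures, and with 2 numbers the pairing could not be settled. Deviations of same-numbered arrays from their group means had a correlation of 0.154 across genes. With the replicate block BMP7 kept its change of 1.01 at an adjusted p of 0.0700. Signal over background limits ID4, BMP4 and the dimmer probes of ID1 and SMAD7.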
